A study of Homo sapiens with 12 samples.

Results

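Transcription in hormone-starved T47D cells given estradiol for 1 h was compared with transcription in T47D cells kept in complete medium with vehicle, at 2 libraries per group, which is 4 of the 12 libraries of the series. T47D is an established human breast cancer line that carries the estrogen receptor. The assay was PRO-seq, in which RNA polymerases already at work on the DNA are allowed to add a labelled base to their transcripts, so that the reads mark ongoing transcription and not stored RNA. One group had been hormone starved for 3 days and then received 1 nM estradiol for 1 h. The other group was grown in RPMI with fetal bovine serum for 3 days and received 0.1% DMSO by volume for 1 h. Starved cells given vehicle, also 2 libraries, are quoted as a reference level. The 4 libraries were picked by their group names and not by a measured value, and they carry the numbers 3 and 4 within each group. The comparison itself was chosen with earlier results of these data known. The comparison asks which genes estradiol left short of their level in complete medium within 1 h, and which it carried past that level. The groups differ both in medium and in added hormone, and these cannot be told apart in the comparison.

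Estradiol binds the estrogen receptor, a nuclear receptor encoded by ESR1 that sits on DNA at estrogen response elements, largely in enhancers far from gene starts, and recruits coactivators that release or load RNA polymerase II. In breast epithelium its direct targets include the progesterone receptor gene PGR, GREB1, MYC and CCND1, and through these the hormone drives cells into the cell cycle. Serum in complete medium supplies steroid hormones together with growth factors and lipoproteins, which act through receptors of their own.

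Library totals were 6584874 and 5579262 counts with estradiol, 6344474 and 4981796 in complete medium and 7377576 and 6790454 in starved vehicle. Across genes, log2 CPM (each gene's count relative to the scaled library total) correlated within groups at r = 0.989 for starved vehicle, 0.987 for estradiol and 0.987 for complete medium, over genes, which are no independent replicates. The markers of luminal breast cells were present, as the label would have it. GATA3, a transcription factor of luminal breast cells, stood at 878 and 846 CPM with estradiol and 880 and 966 in complete medium, while KRT5, a keratin of basal cells, had 0 or 1 count in every one of these libraries. Of 13 fibroblast, endothelial and blood cell markers 4 were abundant enough to test and none of these was called different by the test below. Their summed levels were 27.1 and 32.7 CPM with estradiol against 23.4 and 23.8 in complete medium. CD3E among them differed by a log2 of 1.43 ± 0.62 (SE), at 6 and 17 counts against 4 and 4. Of 10 basal and mesenchymal markers 6 were tested and none was called different, with sums of 35.0 and 39.3 against 42.3 and 44.4 CPM. Their part in the results below was not tested.

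Of 23375 genes tested, 1892 were higher with estradiol than in complete medium and 1896 were lower (8.09% and 8.11%; quasi-likelihood test of edgeR, p adjusted by Benjamini-Hochberg under 0.05). The median log2 difference over all tested genes was 0.002, and 330 of the higher and 153 of the lower genes differed by at least 2-fold. The large differences were thus more often upward. The count depended on the tool and on single libraries. DESeq2 called 1059 higher and 1001 lower. Without estradiol library 3 the counts were 1260 and 1206, without estradiol library 4 they were 1384 and 1232, without complete library 3 they were 1174 and 1055, and without complete library 4 they were 1272 and 1201.

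**Figure D1:**
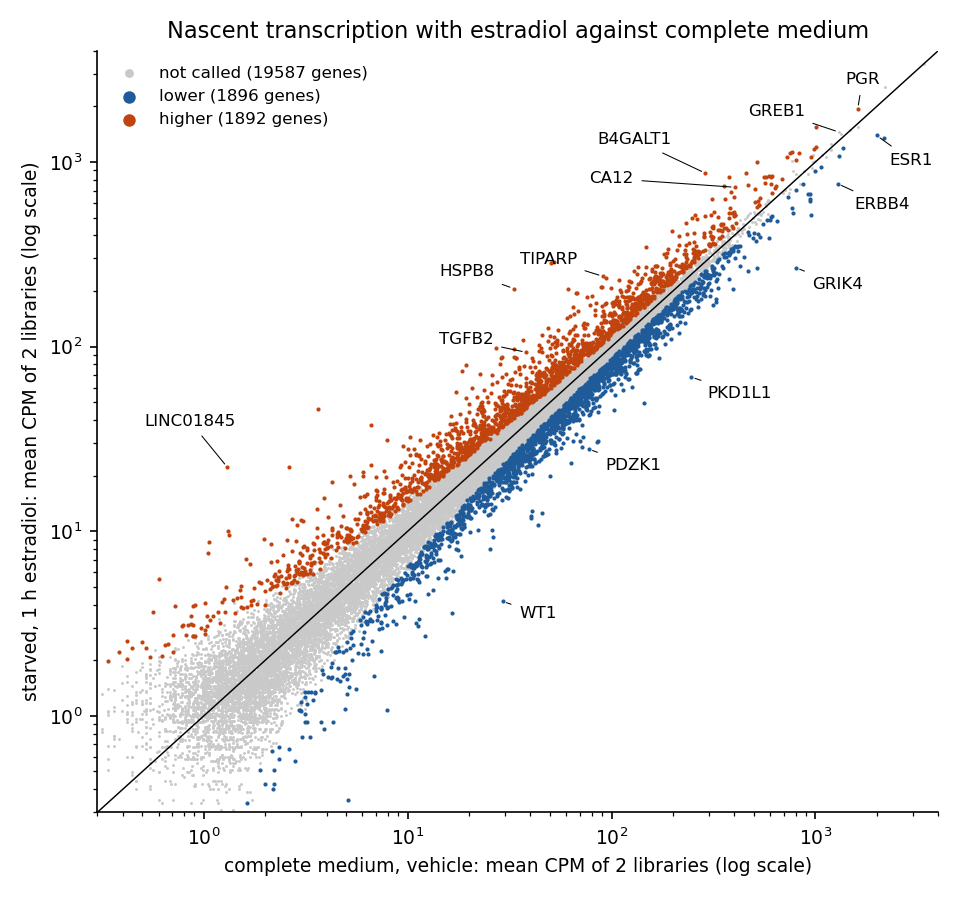
Mean CPM of the 2 complete-medium libraries (horizontal, log scale) against mean CPM of the 2 estradiol libraries (vertical, log scale), 1 point per tested gene, with genes called higher in red and genes called lower in blue; the line marks equal levels. HSPB8, B4GALT1 and LINC01845 lie above the line, and WT1, PKD1L1, PDZK1 and GRIK4 lie below it.

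Each gene was also placed by its order among the 3 groups, with the larger of its p-values against complete medium and against starved vehicle taken as the test of the order and adjusted over all genes. Estradiol stood above both other groups for 427 genes (1.83% of those tested), between starved and complete medium on the way up for 55 (0.235%), between them on the way down for 97 (0.415%), and below both for 170 (0.727%). Both differences behind an order use the same estradiol libraries. By DESeq2 the 4 counts were 221, 23, 29 and 47. In the same order they were 270, 30, 35 and 76 without estradiol library 3, 313, 25, 37 and 68 without estradiol library 4, 307, 28, 59 and 94 without complete library 3, and 295, 30, 61 and 103 without complete library 4. Without starved library 3 they were 313, 33, 43 and 75, and without starved library 4 they were 305, 29, 47 and 80. A fit to the 6 libraries of these groups alone raised the 4 counts to 563, 80, 151 and 245.

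Among genes known to be induced by estrogen, more stood above complete medium after estradiol than below it. Of 48 such genes 46 were tested, and 19 were higher than in complete medium, 10 were lower and 17 did not pass. That is 41.3% higher and 21.7% lower, against 8.09% and 8.11% of all tested genes. The median log2 difference from complete medium was 0.177, while starved vehicle stood at a median of -1.144 from complete medium. Library by library, the median member was at 111% and 110% of its complete-medium mean with estradiol and at 45.1% and 44.9% in starved vehicle. By DESeq2 the counts were 14 higher and 7 lower, and without complete library 3 they were 15 and 4. TFF1 and EGR3 were too low to test, TFF1 with 3 and 13 counts under estradiol and 6 and 7 in complete medium.

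**Figure D2:**
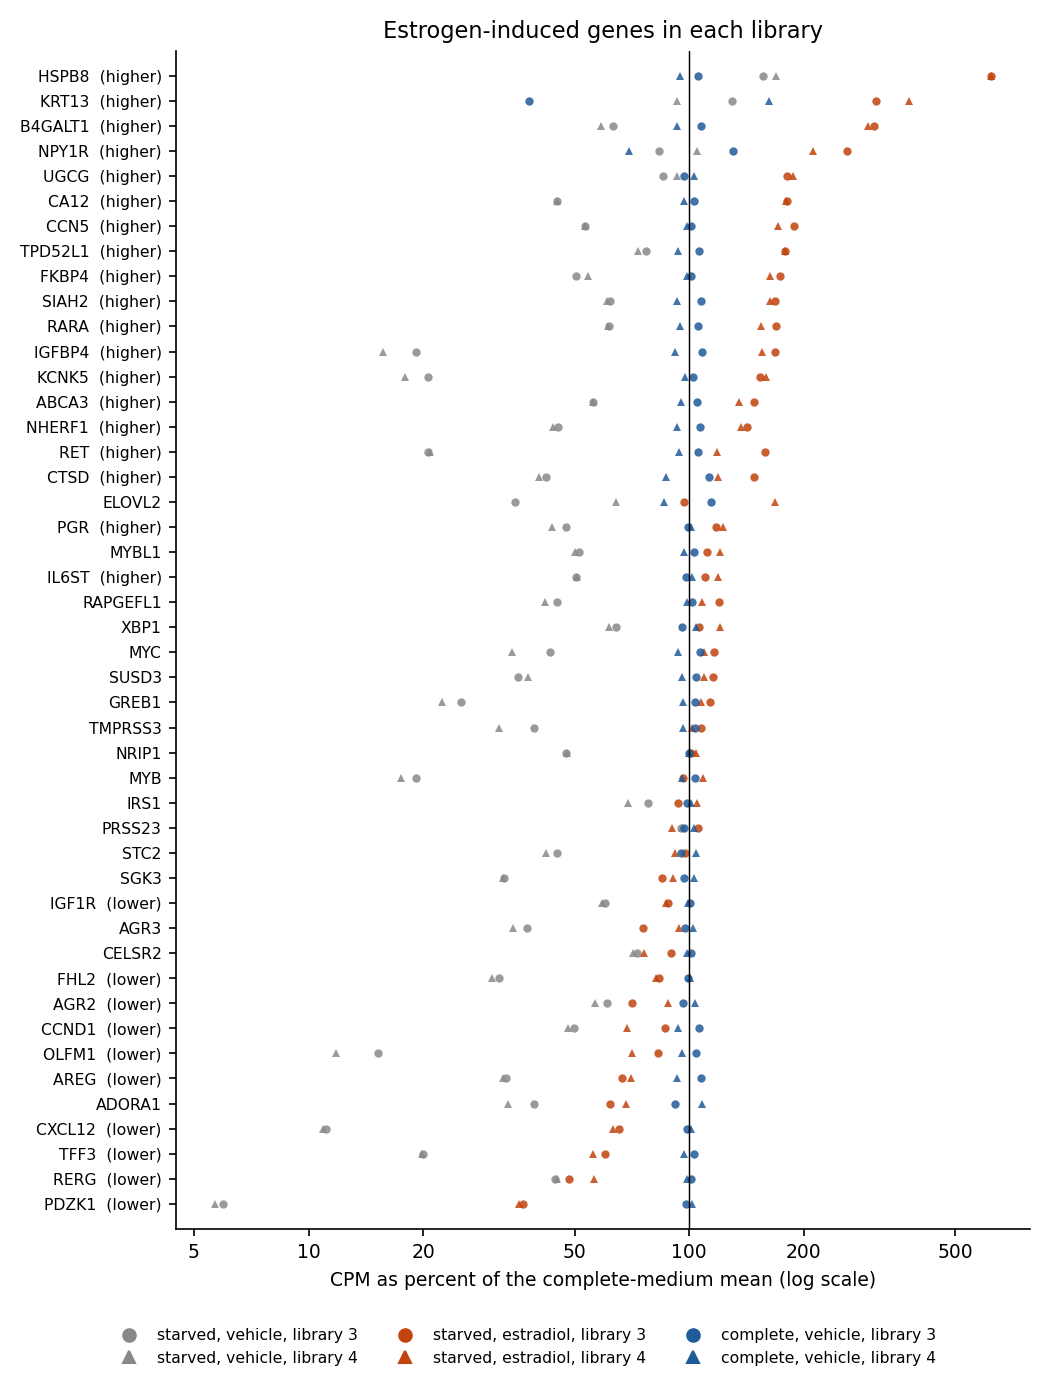
Level of each tested estrogen-induced gene in each library, as percent of the mean CPM of the complete-medium libraries (log scale), for starved vehicle (grey), estradiol (red) and complete medium (blue); circles are library 3 and triangles library 4, and the words beside the symbols give the test against complete medium. Estradiol points run from 36.1% (PDZK1) to 621% (HSPB8) of complete medium as means, while most grey points lie left of the line.

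HSPB8, a small heat shock protein that works in chaperone-assisted autophagy (ENSG00000152137, chromosome 12, 119178931 to 119194746), went furthest past complete medium among these genes. Its level was 206 and 206 CPM with estradiol, 35.0 and 31.4 in complete medium and 51.9 and 56.1 in starved vehicle, so that both estradiol libraries stood far above the other 4. The log2 difference from complete medium was 2.63 ± 0.08 (SE; edgeR, adjusted p = 4.12e-14). B4GALT1, a galactosyltransferase of the Golgi (ENSG00000086062, chromosome 9, 33104077 to 33185089), had 886 and 852 CPM with estradiol, 310 and 268 in complete medium and 182 and 170 in starved vehicle. The groups did not overlap, and the log2 difference from complete medium was 1.59 ± 0.06 (edgeR, adjusted p = 7.41e-13).

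CA12, a carbonic anhydrase of the cell surface (ENSG00000074410, chromosome 15, 63321378 to 63381846), read 732 and 726 CPM with estradiol, 417 and 391 in complete medium and 182 and 181 in starved vehicle, a log2 difference of 0.85 ± 0.05 from complete medium (edgeR, adjusted p = 2.03e-10). IGFBP4, which captures insulin-like growth factors outside the cell (ENSG00000141753, chromosome 17, 40443450 to 40457725), swung furthest of the 2, with 26.0 and 21.2 CPM in starved vehicle, 227 and 210 with estradiol and 146 and 124 in complete medium. Both genes moved from well under complete medium to well over it, with no overlap between groups. FKBP4, a co-chaperone of steroid receptors (ENSG00000004478, chromosome 12, 2794970 to 2805423), did the same at 272 and 256 CPM with estradiol, 160 and 155 in complete medium and 79.4 and 85.5 in starved vehicle. RARA, the retinoic acid receptor alpha gene, stood at 161.8% of complete medium with estradiol and 61.4% in starved vehicle.

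PGR exceeded complete medium by less. The progesterone receptor gene (ENSG00000082175, chromosome 11, 101029624 to 101129813) had 1894 and 1973 CPM with estradiol and 1597 and 1625 in complete medium, with 763 and 705 in starved vehicle. The log2 difference of 0.26 ± 0.06 from complete medium passed the test (edgeR, adjusted p = 0.00271), and the libraries did not overlap. The other higher members were UGCG, a ceramide glucosyltransferase (184% of complete medium), TPD52L1 (178%), the ubiquitin ligase gene SIAH2 (165.5%), the potassium channel gene KCNK5 (156%), the lipid transporter gene ABCA3 (141%), the scaffold gene NHERF1 (139.7%), the receptor kinase gene RET (138%), the protease gene CTSD (134%) and IL6ST, the shared receptor of the interleukin-6 family. NPY1R, CCN5 and KRT13 also passed, at under 10 CPM. KRT13 read 3.89 and 4.75 CPM with estradiol and 0.477 and 2.04 in complete medium, so its size is poorly fixed.

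Of the 46 tested members, 15 stood above both complete medium and starved vehicle by the test of the order. Over all 23375 tested genes 427 did (1.83%). UGCG and HSPB8 were near or above complete medium already in starved vehicle, at 89.3% and 163% of it.

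The estrogen-induced genes below complete medium after estradiol stood at very different distances from their starved level. PDZK1, a scaffold protein of the apical membrane (ENSG00000174827, chromosome 1, 145670852 to 145707400), read 4.61 and 4.39 CPM in starved vehicle, 28.2 and 27.6 with estradiol and 75.9 and 78.4 in complete medium. It was above starved vehicle by a log2 difference of 2.63 and yet at 36.1% of complete medium, a log2 difference of -1.47 ± 0.12 (edgeR, adjusted p = 2.16e-08). CXCL12, a chemokine (ENSG00000107562, chromosome 10, 44370165 to 44385097), went from 13.0 and 12.7 CPM to 76.7 and 73.6, against 115 and 119 in complete medium, a log2 difference of -0.63 ± 0.09 (edgeR, adjusted p = 4.51e-05). RERG, a Ras-like inhibitor of growth, differed from both in staying close to its starved level. It read 191 and 222 CPM with estradiol, 176 and 178 in starved vehicle and 401 and 390 in complete medium, a log2 difference of -0.94 ± 0.08 from complete medium (edgeR, adjusted p = 2.61e-08).

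The other 7 lower members were TFF3, AREG, OLFM1, CCND1, AGR2, FHL2 and IGF1R. TFF3, a trefoil peptide of mucus, was at 58.0% of complete medium at under 10 CPM, and AREG, the amphiregulin ligand of the EGF receptor, at 68.7%. OLFM1 was at 77.0%, AGR2, a protein disulfide isomerase, at 79.3%, FHL2, a LIM-domain cofactor, at 82.6% and the IGF receptor gene IGF1R at 87.5%. CCND1, which encodes cyclin D1, read 112 and 89.1 CPM with estradiol and 138 and 121 in complete medium, a log2 difference of -0.36 ± 0.11 (edgeR, adjusted p = 0.0252). The CCND1 call was lost without estradiol library 4 (-0.21, edgeR, adjusted p = 0.331), without complete library 3 (-0.25, adjusted p = 0.312) and by DESeq2 (-0.36, adjusted p = 0.0571). By the test of the order 6 of the 46 tested members lay between starved and complete medium. They were PDZK1, CXCL12, AREG, OLFM1, FHL2 and IGF1R, all among the 10 lower. Over all 23375 tested genes 55 had this order (0.235%).

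For several textbook targets no difference from complete medium was called. MYC read 154 and 146 CPM with estradiol and 142 and 124 in complete medium (log2 difference 0.17 ± 0.09; edgeR, adjusted p = 0.221). NRIP1, a corepressor, read 298 and 307 against 294 and 295 CPM (0.04 ± 0.06; edgeR, adjusted p = 0.765), and in starved vehicle MYC had been at 38.6% and NRIP1 at 47.7% of complete medium. GREB1, a cofactor of the receptor (ENSG00000196208, chromosome 2, 11482888 to 11642788), read 1487 and 1410 CPM with estradiol and 1354 and 1266 in complete medium, and its difference of 0.14 ± 0.05 did not pass (edgeR, adjusted p = 0.0619). XBP1, a transcription factor of secretory cells, differed by 0.18 ± 0.09 (edgeR, adjusted p = 0.19). GREB1 passed with no count filter (0.18, edgeR, adjusted p = 0.00208), as did XBP1 (0.22, adjusted p = 0.00748). It also passed when the model was fitted to the 4 libraries of both groups alone (0.14, edgeR, adjusted p = 0.0423) or to 6 libraries with starved vehicle (0.15, adjusted p = 0.0152), where XBP1 passed as well (0.19, adjusted p = 0.0215).

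The receptor gene itself was below its level in complete medium. ESR1 (ENSG00000091831, chromosome 6, 151656672 to 152129619) read 1036 and 1020 CPM in starved vehicle, 1357 and 1424 with estradiol and 1999 and 1993 in complete medium. The groups did not overlap, estradiol was at 69.7% of complete medium, and the log2 difference was -0.52 ± 0.04 (edgeR, adjusted p = 9.73e-09). Of 18 receptor cofactors and partner factors 1 was higher and 3 were lower, which is 5.56% and 16.7%. The pioneer factor gene FOXA1 read 125 and 143 CPM with estradiol, 170 and 167 in complete medium and 172 and 178 in starved vehicle, so it was below both (log2 difference -0.33 ± 0.07 from complete medium; edgeR, adjusted p = 0.00198), a call lost without estradiol library 3 (-0.23, edgeR, adjusted p = 0.0802). The coactivator gene NCOA2 (-0.21) and the corepressor gene TLE3 (-0.27) were lower as well, and both calls were lost without estradiol library 3, among other settings. Of 32 nuclear receptor genes 5 were higher (PGR, RARA, RARB, NR3C1 and ESRRA) and 9 were lower, 15.6% and 28.1% against 8.09% and 8.11% of all tested genes. The 9 lower became 3 by DESeq2, 5 without estradiol library 3, 5 without estradiol library 4, 3 without complete library 3 and 4 without complete library 4, and the 5 higher became 3 by DESeq2, without estradiol library 3 and without complete library 4. The clock receptor gene NR1D1 was among the lower receptors, at 9.02 and 8.58 CPM with estradiol against 16.9 and 15.9 in complete medium, at 53.8%.

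Outside the estrogen-induced list, a glutathione transferase gene was among those placed highest above complete medium. This gene, GSTM5 (ENSG00000134201, chromosome 1, 109711751 to 109718268), read 293 and 278 CPM with estradiol, 51.7 and 53.2 in complete medium and 132 and 121 in starved vehicle, a log2 difference of 2.45 ± 0.08 (edgeR, adjusted p = 4.12e-14). ENSG00000241720, a gene identifier with no symbol, gave nearly the same level as GSTM5 in each library, and whether they share reads was not tested. GSTM5 was thus higher in starved vehicle than in complete medium and higher again with estradiol. The rule that named it required that estradiol and complete libraries do not overlap. The non-coding gene LINC01768 (3.64 ± 0.21), the LIM-domain gene PDLIM3 (2.10 ± 0.24), the angiomotin-like gene AMOTL1 (1.99 ± 0.11) and MAP1LC3B2 (1.95 ± 0.20) also stood above both groups.

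The 6 genes with the largest smaller difference among those above both groups were HSPB8, PDLIM3, B4GALT1, ADAMTSL5, LINC01016 and NECAB2. LINC01016, a long non-coding RNA, was nearly silent in starved vehicle at 0.542 and 0.877 CPM, reached 19.8 and 20.1 with estradiol and was at 6.52 and 5.50 in complete medium, a log2 difference of 1.71 ± 0.19 (edgeR, adjusted p = 1.51e-06). ADAMTSL5, a secreted matrix protein gene, read 73.1 and 68.1 CPM with estradiol, 22.4 and 22.6 in complete medium and 18.8 and 20.9 in starved vehicle. NECAB2, a calcium-binding protein gene, read 119 and 99.3 CPM against 43.3 and 30.3, and it overlaps OSGIN1 in the annotation. For both of these the starved and complete libraries were closer to each other than to estradiol.

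WT1, a zinc-finger transcription factor gene (ENSG00000184937, chromosome 11, 32387775 to 32435539), was the gene farthest below complete medium by the naming rule. It read 4.51 and 3.83 CPM with estradiol, 3.25 and 5.12 in starved vehicle and 32.3 and 26.1 in complete medium, so starved and estradiol libraries overlapped and both complete libraries stood apart. The log2 difference from complete medium was -2.80 ± 0.19 (edgeR, adjusted p = 1.87e-09). WT1-AS, its divergent antisense neighbour, differed by -2.19 ± 0.20. The annotated spans of WT1 and WT1-AS overlap, and no source used here gives the strand setting of the counts, so their reads cannot be told apart. PKD1L1, a polycystin family gene (ENSG00000158683, chromosome 7, 47774614 to 47960906), read 75.1 and 61.7 CPM with estradiol, 258 and 233 in complete medium and 92.1 and 83.2 in starved vehicle, a log2 difference of -1.84 ± 0.08 (edgeR, adjusted p = 7.57e-12). It was below both other groups.

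GRIK4, a kainate receptor subunit gene spanning 477.2 kb (ENSG00000149403, chromosome 11, 120511748 to 120988906), read 169 and 146 CPM in starved vehicle, 280 and 254 with estradiol and 795 and 807 in complete medium. It had left its starved level and was still at 33.4% of complete medium, a log2 difference of -1.58 ± 0.06 (edgeR, adjusted p = 7.41e-13). CLSTN2, a calsyntenin of neurons, was at 48.37 and 50.04 CPM with estradiol, 41.7 and 43.3 in starved vehicle and 146 and 144 in complete medium, and the leucine-rich repeat gene LRRN3 was at 32.0% of complete medium. BFSP2-AS1 (-1.77 ± 0.15) and CA8, a carbonic anhydrase relative (-1.51 ± 0.11), were also among the genes farthest below.

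Among genes in the order starved, estradiol, complete medium, the 6 with the largest smaller difference were PDZK1, a gene with no symbol, HEY2, DOK7, ABCC11 and RBBP8. HEY2, a repressor downstream of Notch, read 2.98 and 3.95 CPM in starved vehicle, 7.15 and 8.77 with estradiol and 17.5 and 17.9 in complete medium. ABCC11, a transporter of the ABC family, read 103 and 87.1, then 180 and 184, then 333 and 317 CPM. RBBP8, which encodes the DNA end-resection factor CtIP, read 47.1 and 51.2, then 100 and 106, then 174 and 193 CPM. DOK7, an adaptor of receptor kinases, was at 54.2% of complete medium with estradiol and 20.2% in starved vehicle.

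A set of genes that stood high in starved vehicle lay between it and complete medium after 1 h of estradiol. LINC01845, a long non-coding gene (ENSG00000253298, chromosome 5, 159448556 to 159466276), had the largest log2 difference of any named gene, at 4.03 ± 0.26 (edgeR, adjusted p = 7.64e-10). It read 44.3 and 45.3 CPM in starved vehicle, 20.7 and 23.7 with estradiol and 1.59 and 1.02 in complete medium. TGFB2, a transforming growth factor beta ligand (ENSG00000092969, chromosome 1, 218345336 to 218444619), read 171 and 161, then 98.1 and 88.0, then 32.3 and 44.0 CPM, a log2 difference of 1.31 ± 0.12 from complete medium (edgeR, adjusted p = 1.16e-07). The netrin gene NTN4 (0.83 ± 0.12) and SOD3, the extracellular superoxide dismutase (1.03 ± 0.14), showed the same order. The set is defined by this order, so the place of estradiol between the other groups in these 4 genes is no separate result.

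Genes below both groups included SMAD6, an inhibitor of bone morphogenetic protein signalling (ENSG00000137834, chromosome 15, 66702236 to 66782849). It read 63.3 and 62.7 CPM in starved vehicle, 33.8 and 26.1 with estradiol and 56.9 and 58.2 in complete medium, a log2 difference of -0.93 ± 0.11 from complete medium (edgeR, adjusted p = 2.6e-06). LRIG3, a membrane protein that acts on receptor kinases, read 188 and 184, then 81.8 and 91.9, then 175 and 166 CPM. Starved and complete medium were close to each other for both, and estradiol alone stood apart. MAP2K6, a kinase that activates p38 (ENSG00000108984, chromosome 17, 69414697 to 69553865), read 13.1 and 15.8, then 8.40 and 7.67, then 24.2 and 26.3 CPM, a log2 difference of -1.64 ± 0.16. GPNMB (-1.29 ± 0.21), TSPAN12 (-0.93 ± 0.19) and the nuclear receptor gene HNF4G (-0.91 ± 0.23) completed the 6 named by the rule, and the HNF4G call was lost without estradiol library 4 (-0.71, edgeR, adjusted p = 0.109) and without complete library 3 (-0.90, adjusted p = 0.0672).

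Of 14 genes known to be repressed by estrogen, 3 were higher than in complete medium and 4 were lower, which is 21.4% and 28.6% against 8.09% and 8.11% of all tested genes. The 4 lower became 2 without estradiol library 3, without complete library 3 and by DESeq2. The median member was at 114% and 109% of complete medium with estradiol and at 178% and 162% in starved vehicle. The higher members were TGFB2, BAMBI, a decoy receptor of the same pathway, and BCAS1. BCAS1 read 286 and 303 CPM in starved vehicle, 211 and 211 with estradiol and 88.6 and 90.6 in complete medium, a log2 difference of 1.24 ± 0.06 (edgeR, adjusted p = 2.43e-11). The lower members were SMAD6, TGFB3, EPHA4 and CCNG2. Of 33 genes of the TGF-beta and BMP pathway 4 were higher and 9 lower, 12.1% and 27.3% against 8.09% and 8.11% of all tested genes. The ligand gene BMP4 (-0.84) and the receptor genes TGFBR1 (-0.42), TGFBR3 (-0.51) and BMPR1A (-0.18) were lower. The higher genes besides TGFB2 were the inhibitor genes SKIL (0.70 ± 0.07) and BAMBI (1.00 ± 0.10) and the target gene ID3 (0.68), while the targets ID1 (-0.37) and ID2 (-0.61) were lower. The count of lower genes fell to 4 without estradiol library 3, 5 without estradiol library 4, 6 without complete library 3, 4 without complete library 4 and 4 by DESeq2.

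Immediate-early genes, switched on within minutes of a growth signal, stood above complete medium more often than below it. Of 29 tested 12 were higher, 2 were lower and 15 did not pass, 41.4% and 6.90% against 8.09% and 8.11% of all tested genes, with a median log2 difference of 0.493. JUN, a subunit of the AP-1 factor (ENSG00000177606, chromosome 1, 58780791 to 58784047), read 116 and 129 CPM with estradiol, 53.4 and 55.4 in complete medium and 105 and 117 in starved vehicle, a log2 difference of 1.17 ± 0.10 (edgeR, adjusted p = 3.3e-08). FOSL2, another AP-1 subunit, read 113 and 113 CPM, against 57.57 and 47.04 in complete medium and 50.9 and 59.9 in starved vehicle, a log2 difference of 1.10 ± 0.09. JUN was thus already high in starved cells, whereas FOSL2 was high with estradiol alone. JUND (1.29 ± 0.12) and ATF3 (0.80 ± 0.08) also stood above both groups, and so did ZFP36 (1.14), which destabilises mRNA, and MAFF (0.99). Unlike FOSL2, at 106% of complete medium in starved vehicle, JUND and ATF3 were already at 152.6% and 127% there. The matricellular gene CCN1 (1.10 ± 0.09) resembled JUN, at 93.0 and 96.6 CPM with estradiol and 77.5 and 80.4 in starved vehicle against 45.8 and 42.2.

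FOS did not pass, at 16.0 and 25.6 CPM with estradiol and 10.3 and 17.3 in complete medium (edgeR, adjusted p = 0.0922), and EGR1 stayed under 6 CPM in all 6 libraries. The lower members were IER5 (-0.63) and the orphan receptor gene NR4A1 (-0.38). The median of the list was 0.284 without complete library 3 and 0.354 by DESeq2, which called 9 higher. There was 1 lower by DESeq2, with no count filter and without each of the 4 libraries in turn.

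Of 17 feedback genes of the MAP kinase pathway 5 were higher and 3 lower. ERRFI1, an inhibitor of the EGF receptor, read 105 and 108 CPM with estradiol, 56.9 and 50.3 in complete medium and 71.5 and 66.1 in starved vehicle. The phosphatase gene DUSP1 (1.07 ± 0.14) was above both groups as well, and DUSP10 (0.82 ± 0.15), DUSP8 (1.04) and SPRY1 (0.68) were the other higher members. DUSP4, a nuclear phosphatase of ERK, went the other way, at 31.3 and 25.6 CPM with estradiol, 19.1 and 17.4 in starved vehicle and 77.0 and 66.4 in complete medium, a log2 difference of -1.33 ± 0.11 (edgeR, adjusted p = 3.69e-08). DUSP5 (-0.49) and SPRED1 (-0.74) were the other lower members. The shares of this group were 29.4% higher and 17.6% lower, against 8.09% and 8.11% of all tested genes. The 3 lower became 1 without complete library 3, and 2 without estradiol library 3, without complete library 4 and by DESeq2.

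Of 27 growth factor and receptor genes 7 were higher and 3 lower, 25.9% and 11.1% against 8.09% and 8.11% of all tested genes. EGFR, the EGF receptor gene, read 100 and 106 CPM with estradiol, 113 and 119 in starved vehicle and 59.5 and 53.2 in complete medium, a log2 difference of 0.86 ± 0.08 (edgeR, adjusted p = 1.97e-07). ERBB4, a receptor of the same family, read 731 and 794 CPM with estradiol, 722 and 708 in starved vehicle and 1262 and 1306 in complete medium, a difference of -0.75 ± 0.06 (edgeR, adjusted p = 1.91e-08). The starved groups thus shared high EGFR and low ERBB4 levels, with or without estradiol. TGFA, a ligand of the EGF receptor, was higher than in either other group (0.64 ± 0.10), while the ligand AREG was lower than in complete medium. IGFBP5, a relative of IGFBP4, read 506 and 516 CPM with estradiol, 296 and 280 in complete medium and 361 and 379 in starved vehicle (0.83 ± 0.07). Without complete library 3 the counts were 5 higher and 1 lower.

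Targets of other hormone receptors did not move as 1 block. Of 19 glucocorticoid, progestin and androgen targets 4 were higher and 2 lower, 21.1% and 10.5% against 8.09% and 8.11% of all tested genes. FKBP5, a co-chaperone induced by these hormones, read 173 and 176 CPM with estradiol, 190 and 196 in starved vehicle and 323 and 329 in complete medium, a log2 difference of -0.90 ± 0.06 (edgeR, adjusted p = 1.56e-09). ZBTB16, another classical target, read 5.76 and 6.76, 4.47 and 3.51, and 14.8 and 16.9 CPM in these groups (-1.34 ± 0.18). Complete medium stood apart from both starved groups for these genes. TMPRSS2, an androgen-induced protease gene, differed from them, at 59.4 and 59.5 CPM with estradiol, 20.8 and 20.6 in complete medium and 28.4 and 30.7 in starved vehicle, a log2 difference of 1.52 ± 0.11 (edgeR, adjusted p = 7.65e-09). The other higher members were DUSP1, ERRFI1 and NDRG1.

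Of 14 retinoic acid targets 4 were higher and 0 lower, 28.6% and 0% against 8.09% and 8.11% of all tested genes. DHRS3, an enzyme that turns retinal back to retinol, read 41.1 and 42.9 CPM with estradiol, 17.7 and 14.9 in complete medium and 23.8 and 19.3 in starved vehicle, a difference of 1.35 ± 0.13, and RARA, RARB (0.82 ± 0.19) and TGM2 were the others. The TGM2 call was lost without each of the 4 libraries in turn. Among 9 targets of the aryl hydrocarbon, vitamin D and thyroid hormone receptors 1 was higher and 3 were lower, 11.1% and 33.3%. The higher gene was TIPARP, an ADP-ribosyltransferase that restrains the aryl hydrocarbon receptor (ENSG00000163659, chromosome 3, 156674590 to 156706770), at 212 and 268 CPM with estradiol, 87.6 and 93.7 in complete medium and 57.0 and 61.0 in starved vehicle. Its log2 difference was 1.41 ± 0.10 (edgeR, adjusted p = 4.19e-09). The lower genes were HR, VDR and THRB, at 67.5%, 84.5% and 88.4% of complete medium, and each call was lost without complete library 3, among other settings.

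Genes of cholesterol synthesis and uptake stood above complete medium, and starved cells given vehicle had them at similar levels. Of 23 tested 18 were higher and 0 lower, 78.3% against 8.09% of all tested genes, with a median log2 difference of 0.457 from complete medium and of -0.008 from starved vehicle. The median member was at 135% and 137% of complete medium with estradiol and at 135% and 137% in starved vehicle. SREBF2, the transcription factor that drives these genes when sterols are scarce (ENSG00000198911, chromosome 22, 41833105 to 41907305), read 179 and 173 CPM with estradiol, 179 and 175 in starved vehicle and 122 and 120 in complete medium, a difference of 0.54 ± 0.06 (edgeR, adjusted p = 3.01e-06). MSMO1, a sterol methyl oxidase (ENSG00000052802, chromosome 4, 165327669 to 165343164), read 22.71 and 23.01, 23.2 and 27.2, and 10.97 and 11.81 CPM in these groups (1.01 ± 0.15). The starved groups overlapped for SREBF2 and lay next to each other for MSMO1, and complete medium stood below them for both.

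The synthase gene HMGCS1 (0.57), the squalene epoxidase gene SQLE (0.61) and the feedback gene INSIG1 (0.69) were among the 18. CYP51A1 (0.93 ± 0.12) and FDFT1 (0.41) were above both groups. The count was 14 by DESeq2, and 14, 13, 9 and 16 without estradiol libraries 3 and 4 and complete libraries 3 and 4. Fatty acid synthesis genes did not share the pattern. Of 19 tested, FASN (0.36) was the 1 higher and FADS2 (-0.24) the 1 lower gene, 5.26% each way. The FASN call was lost without estradiol library 3 (0.12, edgeR, adjusted p = 0.548), complete library 3 (0.43, adjusted p = 0.0505) and complete library 4 (0.30, adjusted p = 0.168). With no count filter 3 were higher. The FADS2 call was lost by DESeq2, with that setting, and without estradiol library 4, complete library 3 or complete library 4. Of 14 targets of LXR and PPAR 1 was higher (ACADVL) and 2 were lower, among them NR1H3, 7.14% and 14.3%. ACADVL lost its call by DESeq2 and without estradiol library 3 or complete library 4, and NR1H3 by DESeq2 and without estradiol library 3 or complete library 3.

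Cell cycle genes showed the reverse picture, low in both starved groups. Of 24 genes of mitosis and G2/M 22 were lower with estradiol than in complete medium and 0 were higher, 91.7% against 8.11% of all tested genes, with a median log2 difference of -0.557. Of 34 genes of DNA replication and G1/S 25 were lower and 1 was higher, with a median of -0.506. Against starved vehicle the medians were -0.031 and -0.005. TPX2, a spindle assembly factor (ENSG00000088325, chromosome 20, 31739290 to 31801800), read 132 and 130 CPM with estradiol, 136 and 136 in starved vehicle and 208 and 209 in complete medium, a difference of -0.67 ± 0.06 (edgeR, adjusted p = 7.72e-08). MCM2, a subunit of the replicative helicase (ENSG00000073111, chromosome 3, 127598411 to 127622436), read 26.8 and 26.3, 33.6 and 32.3, and 54.1 and 52.1 CPM in these groups (-1.002 ± 0.097; edgeR, adjusted p = 2.32e-07).

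Other members differed by similar amounts. The kinesin gene KIF11 (-0.54), the kinetochore gene CENPF (-0.64), the spindle gene NUSAP1 (-0.57), the repressor gene E2F7 (-0.83) and RRM2, which makes deoxynucleotides (-0.63), were all lower, and so were the cyclin genes CCNA2 (-0.69), CCNB1 (-0.52) and CCNB2 (-0.59). The exception upward was CDK6, a G1 kinase, at 55.7 and 59.9 CPM with estradiol, 66.2 and 67.5 in starved vehicle and 29.74 and 34.01 in complete medium (0.86 ± 0.10; edgeR, adjusted p = 1.72e-06). Fewer cells in a cycle phase and less transcription per cell cannot be told apart in bulk libraries. Of 27 genes of nucleotide and one-carbon synthesis 14 were lower and 1 was higher, 51.9% and 3.7% against 8.11% and 8.09% of all tested genes. Among the lower were MTHFD1 (-0.57 ± 0.09) and MTHFD1L (-0.76 ± 0.12), and PRPS1 (0.82) was the higher gene. By DESeq2 11 were lower and 1 was higher. The median of this list was -0.323, and it ran from -0.394 to -0.302 without single estradiol or complete libraries. Replication-dependent histone genes did not follow, with 1 of 23 lower (H3C2, a share of 4.35%) and 0 higher and a median of 0.001. The H3C2 call was lost without each of the 4 libraries in turn and by DESeq2 (-0.38, adjusted p = 0.205).

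**Figure D3:**
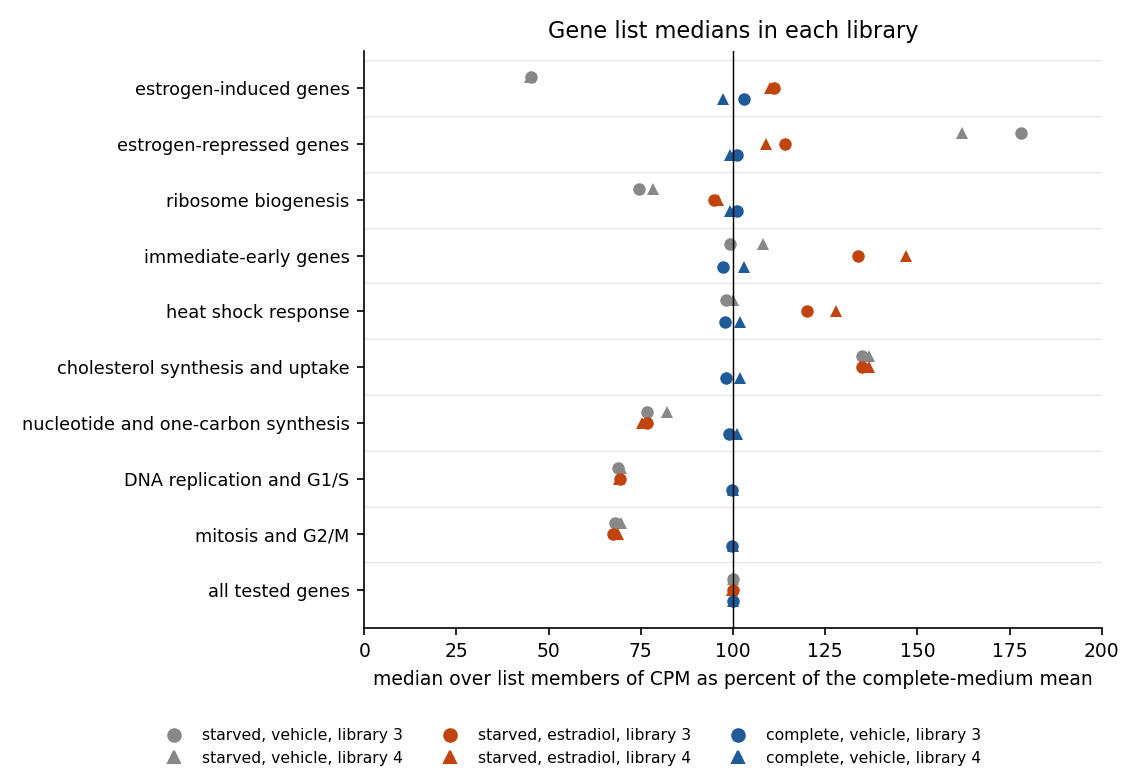
Median over the tested members of each list of the level in each library, as percent of the mean of the complete-medium libraries, for starved vehicle (grey), estradiol (red) and complete medium (blue), with circles for library 3 and triangles for library 4. Estrogen-induced genes go from 45.1% and 44.9% to 111% and 110%, while cholesterol genes (135% and 137%) and the G2/M genes lie at about the same place in both starved groups.

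Promoters of the sterol and mitotic genes are shown because these groups had the highest shares of members above and below complete medium. The sequences are the 160 bases before the annotated start in RefSeq's GRCh38.p14 assembly, written 5′ to 3′ on the gene's strand. Capitals mark CCAAT boxes, as CCAAT or its reverse complement ATTGG, and in SREBF2 also the sterol response element TCACNCCAC. They are SREBF2 (chr22:41832945-41833104, plus strand), MSMO1 (chr4:165327509-165327668, plus strand), the cyclin gene CCNB2 (chr15:59104986-59105145, plus strand) and TOP2A, a topoisomerase gene (chr17:40417897-40418056, minus strand).
SREBF2: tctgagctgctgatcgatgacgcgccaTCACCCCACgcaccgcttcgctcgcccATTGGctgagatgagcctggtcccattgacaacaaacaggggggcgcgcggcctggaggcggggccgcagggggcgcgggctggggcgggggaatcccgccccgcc
MSMO1: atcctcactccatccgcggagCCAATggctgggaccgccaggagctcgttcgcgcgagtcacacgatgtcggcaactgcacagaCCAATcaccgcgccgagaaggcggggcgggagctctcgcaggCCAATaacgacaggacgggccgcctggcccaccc
CCNB2: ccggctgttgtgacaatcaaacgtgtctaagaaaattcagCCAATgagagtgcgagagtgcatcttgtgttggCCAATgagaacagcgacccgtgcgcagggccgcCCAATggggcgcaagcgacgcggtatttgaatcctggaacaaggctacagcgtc
TOP2A: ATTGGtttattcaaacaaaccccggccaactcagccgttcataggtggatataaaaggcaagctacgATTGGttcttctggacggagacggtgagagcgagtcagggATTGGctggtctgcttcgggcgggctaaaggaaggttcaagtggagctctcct

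MSMO1, CCNB2 and TOP2A each hold 3 CCAAT boxes in the stretch shown and SREBF2 holds 1. In promoters of these groups not shown, the same stretch holds 3 in MVD and 2 in HMGCS1, NUSAP1 and CDC20. It holds 1 in KIF11, PLK1, SC5D and LSS and 0 in CYP51A1 and INSIG1. MSMO1, CCNB2 and TOP2A are thus among those with the most boxes. In windows from 250 bases before to 50 after the start, searched on both strands, a CCAAT box was found in 15 of 18 promoters of the cholesterol list and in 15 of 20 of the G2/M list, against 35.7% of all 27305 promoters in the table. It was also found in 18 of 21 histone promoters and 18 of 24 promoters of the unfolded protein response, so it was common in lists that stood above complete medium, in lists that stood below it and in the histone list, where 22 of 23 members did not pass. The sterol element was found in 1 of 18 cholesterol promoters, that of SREBF2, and in 1.15% of all promoters. The full estrogen response element, GGTCA and TGACC with 3 bases between them, was found in 18 of all promoters and in 0 of the 36 estrogen-induced ones, which says only that these letters are not in this window.

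Stress genes were in part higher. Of 16 heat shock genes 7 were higher and 1 (BAG3) was lower, 43.8% and 6.25% against 8.09% and 8.11% of all tested genes. There were 0 lower by DESeq2, with RLE size factors, with no count filter and without each of the 4 libraries in turn. HSPB1, a small heat shock protein, read 66.3 and 70.7 CPM with estradiol, 26.9 and 31.2 in complete medium and 55.5 and 62.9 in starved vehicle (1.25 ± 0.12; edgeR, adjusted p = 1.55e-07) and its starved level was already at 204% of complete medium. DNAJA1, a chaperone of the HSP40 class, read 52.1 and 52.6 CPM, against 35.8 and 32.2 in complete medium and 30.3 and 35.4 in starved vehicle (0.62 ± 0.10), and like HSPB8 and FKBP4 it stood above both groups. HSPB8 and FKBP4 are also in the estrogen-induced list. Of 24 genes of the unfolded protein response 7 were higher and 1 lower, 29.2% and 4.17% against 8.09% and 8.11% of all tested genes. The chaperone genes CALR (0.88 ± 0.10) and HSPA5 (0.46 ± 0.09) and the factor gene DDIT3 (0.47 ± 0.08) were among the higher, and TRIB3 (-0.38) was the lower. By DESeq2 4 of the 24 were higher, and 0 were lower without estradiol library 4 and without complete library 3.

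**Figure D4:**
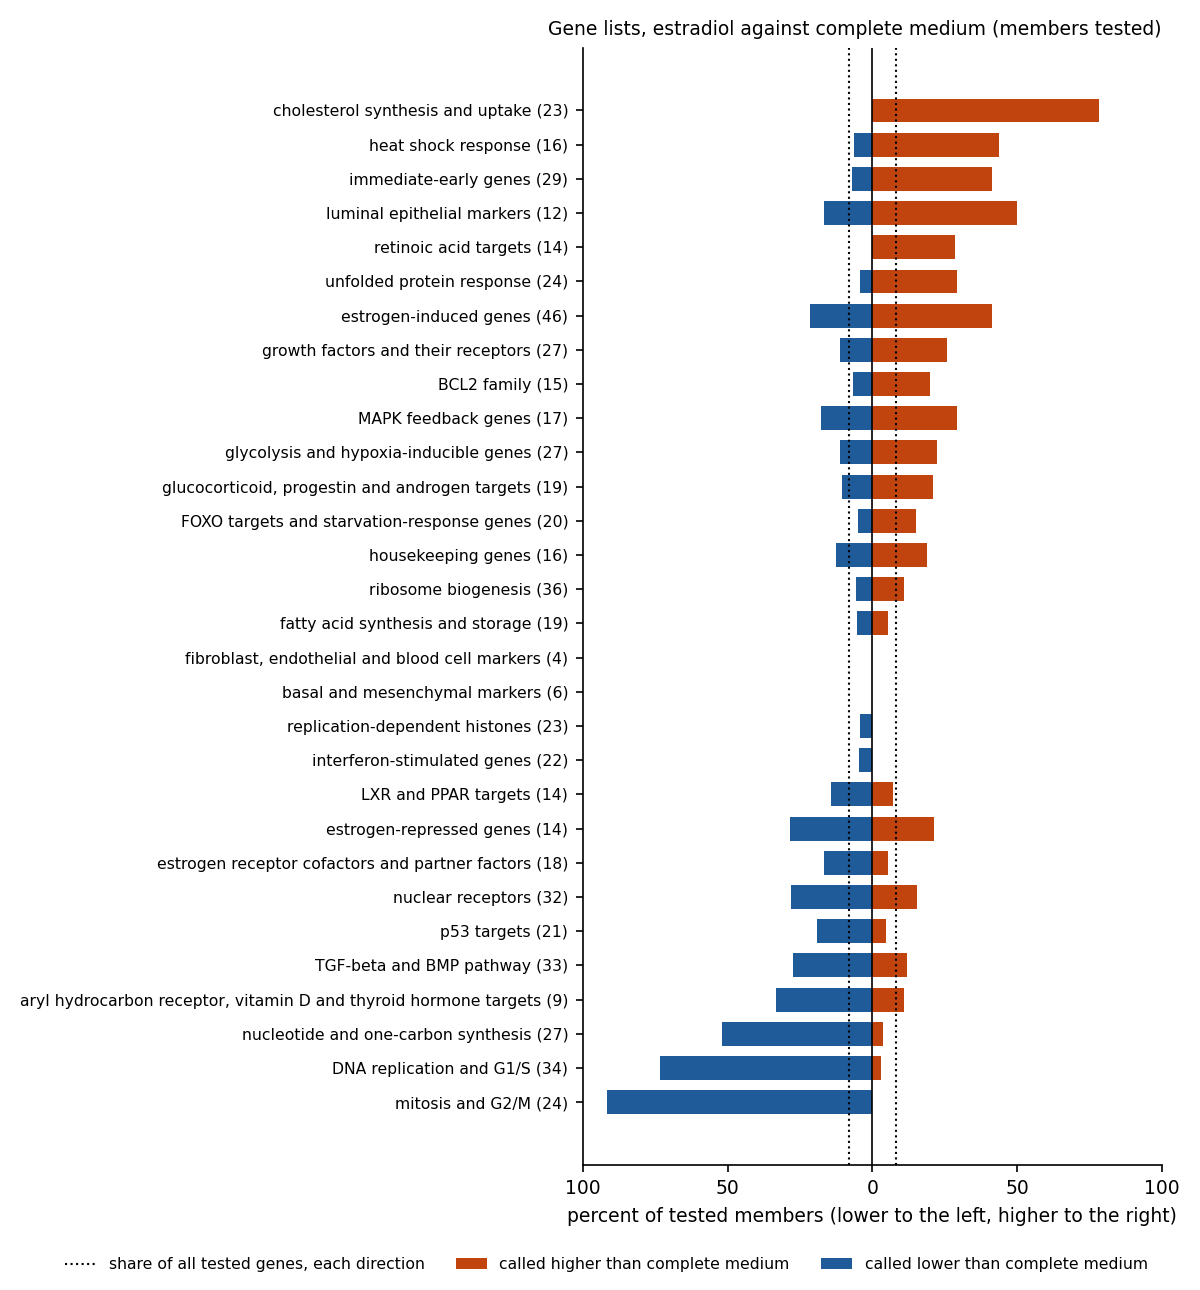
Share of the tested members of each of the 30 gene lists that were called higher (red, to the right) or lower (blue, to the left) with estradiol than in complete medium, with the number tested in brackets and dotted lines at the share of all tested genes (8.09% and 8.11%). Cholesterol genes extend furthest to the right (78.3%) and G2/M genes furthest to the left (91.7%).

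Ribosome biogenesis genes, which were low in starved vehicle, were close to complete medium with estradiol. Its median member was at 94.9% and 96.0% of complete medium with estradiol and at 74.5% and 78.2% in starved vehicle. Of 36 genes 4 were higher and 2 lower, shares of 11.1% and 5.56% that are near those of all tested genes. RRP12 (0.31 ± 0.07), DDX10 (0.23 ± 0.07), DDX21 and NOP16 were higher, and WDR74 (-0.50 ± 0.08) and UTP20 (-0.31 ± 0.07) were lower. A p that misses the threshold does not show that the other 30 were at the same level. By DESeq2 1 was higher and 2 were lower, and the counts were 2 and 2 without estradiol library 3, 1 and 3 without estradiol library 4, 1 and 1 without complete library 3 and 2 and 2 without complete library 4.

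Of 27 genes of glycolysis and the hypoxia response 6 were higher and 3 lower, 22.2% and 11.1% against 8.09% and 8.11% of all tested genes. HK1, a hexokinase, read 254 and 260 CPM with estradiol, 157 and 157 in complete medium and 166 and 160 in starved vehicle (0.71 ± 0.06; edgeR, adjusted p = 1.26e-08). PFKFB3, a regulator of glycolytic flux, read 1200 and 1032 CPM, against 875 and 783 in complete medium and 492 and 442 in starved vehicle (0.43 ± 0.07; edgeR, adjusted p = 0.000124). With HK2 (0.52) these were the 3 members above both groups. ADM (0.69 ± 0.14) and DDIT4 (0.72 ± 0.15) were higher as they were in starved vehicle, and PDK1 (-0.59), PFKL (-0.41) and ENO1 (-0.26) were lower. Of these 3 lower calls 0 were left by DESeq2 and without estradiol library 4, and the count was 1 without estradiol library 3 and without complete library 4.

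Of 21 p53 targets 1 was higher (SESN2) and 4 were lower, 4.76% and 19.0%, with TP53I3 at 55.4% (-0.86 ± 0.08) and DDB2, a DNA damage sensor, at 58.8% of complete medium (-0.76 ± 0.08). The SESN2 call was lost by DESeq2 and without estradiol library 4, complete library 3 or complete library 4, and the lower count was 2 without complete library 3. Of 20 FOXO targets and starvation-response genes 3 were higher (GABARAPL1, CITED2 and ULK1) and 1 was lower, 15.0% and 5%, and CCNG2, the lower gene, lost its call without estradiol library 3 (-0.15, edgeR, adjusted p = 0.435) and without complete library 3 (-0.18, adjusted p = 0.43). ULK1 lost its call by DESeq2, without either estradiol library and without complete library 4, CITED2 without estradiol library 4 and complete library 3, and GABARAPL1 without complete library 3. Of 15 BCL2 family genes 3 were higher (MCL1, BID and BMF) and 1, the pro-apoptotic gene BCL2L11, was lower (-0.63 ± 0.11), 20% and 6.67%. The 3 higher became 1 by DESeq2, without estradiol library 4 and without complete library 4. The shares of all tested genes were 8.09% and 8.11%. Of 22 interferon-stimulated genes 0 were higher and 1, OAS3, was lower (-0.62 ± 0.11), 0% and 4.55%, both below the shares of all tested genes. The median member was at 122% and 119% of complete medium in starved vehicle and at 93.5% and 94.6% with estradiol.

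Of 12 luminal markers 6 were higher and 2, ESR1 and FOXA1, were lower, 50% and 16.7% against 8.09% and 8.11% of all tested genes. The 6 higher became 3 without estradiol library 4 and 3 without complete library 4, and 4 by DESeq2 and without estradiol library 3. ELF3, an epithelial transcription factor, read 190 and 182 CPM with estradiol, 81.7 and 69.6 in complete medium and 133 and 125 in starved vehicle (1.29 ± 0.08; edgeR, adjusted p = 2.6e-10), and the keratin gene KRT19 was above both groups by less (0.40 ± 0.08). Of 16 housekeeping genes, which serve as a rough check of scaling, 3 were higher and 2 lower, with a median of -0.080. Those shares, 18.8% and 12.5%, were both above the 8.09% and 8.11% of all tested genes, so the check is weak. Among the housekeeping genes the transferrin receptor gene TFRC (0.50 ± 0.06) was higher and GUSB (-0.37 ± 0.09) and HPRT1 (-0.55 ± 0.12) lower. The GUSB call was lost without estradiol library 4 (-0.33, edgeR, adjusted p = 0.0535) and without complete library 4 (-0.32, adjusted p = 0.0637).

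Genes placed between starved and complete medium tended to be long, and so did genes below both groups. Annotated length had a median of 112.3 kb for genes between starved and complete medium on the way up and of 127.1 kb for those between on the way down, compared with 51.6 kb for genes above both groups, 97.85 kb for genes below both and 29.2 kb for all tested genes with a length. The share of genes over 100 kb was 53.2%, 57.5%, 25.3%, 49.4% and 19.8% in the same order. These lengths are a description with no test. Genes with an order called were also deeper, with medians of 498 to 605.25 counts per library against 128.5 for all, and longer genes collect more counts. The estrogen-induced list showed no such order. Its 19 higher members had a median length of 38.6 kb, its 10 lower members 25.7 kb and its 17 others 37.9 kb.

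**Figure D5:**
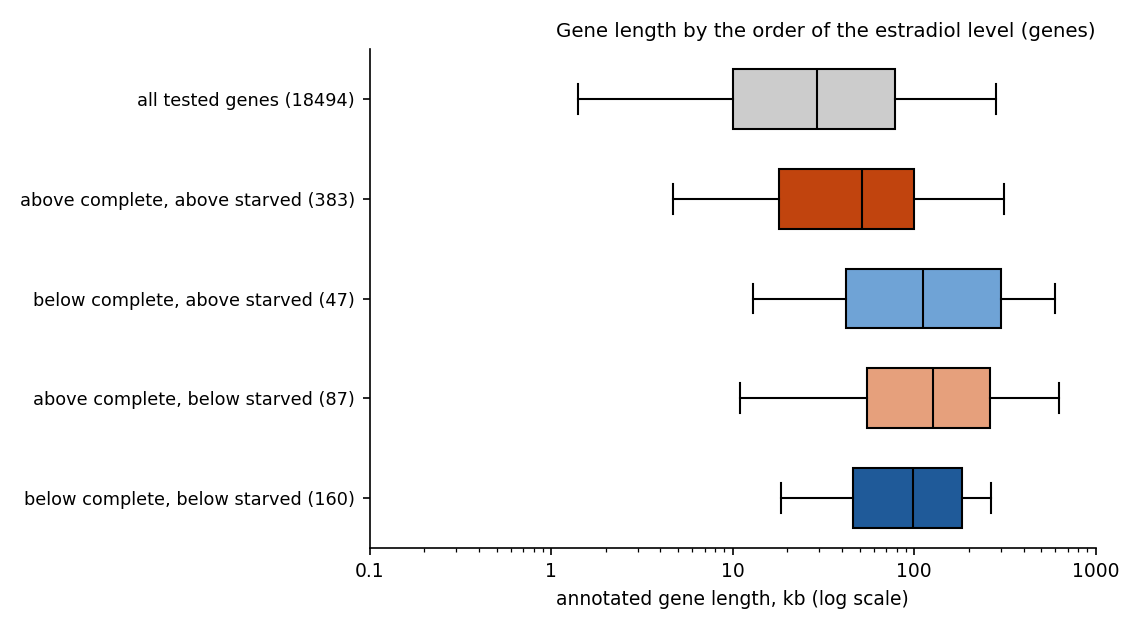
Annotated gene length (log scale, kb) for all tested genes and for genes by the place of the estradiol level among the groups, with the number of genes that have a length in brackets; boxes span the quartiles with the median as a line, and whiskers run from the 5th to the 95th percentile. The boxes of genes between starved and complete medium (medians 112.3 and 127.1 kb) and of genes below both groups (97.85 kb) lie to the right of the box of all tested genes (29.2 kb).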

How the data were processed

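PRO-seq was measured in 12 T47D libraries in 6 groups of 2. The deposited values are raw counts, 1 whole number per library and Ensembl identifier, with no scaling by the authors. The submitters' processing notes name build hg38, SAMtools 1.9, Bowtie2 2.4.4 and cutadapt 1.8.1. No source used here gives the counting tool, annotation, strand setting or counted region, so counts of overlapping, antisense and near-identical genes are uncertain and promoter-proximal polymerase is not separated from polymerase in the gene body. The protocol text describes complete medium, so starvation was read from group names and the design text. No source used here gives the vehicle of the estradiol group. Library numbers 3 and 4 come from the descriptions, whereas titles number the same libraries from 1. Separate cultures are not stated, so p-values measure library-to-library spread, which may be technical.

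Of 60605 identifiers 142 had no symbol and were kept under their identifier, with 0.281% of counts. Of identifiers sharing a symbol the most abundant was kept, which left out 1195 with 0.0741% of counts. Genes were filtered with filterByExpr, scaled by TMM and fitted over all 12 libraries with edgeR 4.0.16 (R 4.3.3), whose quasi-likelihood test was adjusted by Benjamini-Hochberg at 0.05. CPM are TMM-scaled, SE is that of the fit, and positions and lengths are those of RefSeq GRCh38.p14, matched by symbol for 40122 genes. The pair of libraries in each of the 3 groups varied beyond counting noise, at a chi-square per gene of 1.59 for estradiol, 1.32 for complete medium and 1.20 for starved vehicle over genes with at least 20 counts. The scripts were tested on simulated data.

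The comparison, the 30 gene lists and the naming rule were chosen with earlier results of these data known. The rule always named CCND1, CXCL12, ESR1, GREB1, IGFBP4, MYC, NRIP1, PDZK1, PGR, RARA, TFF1 and XBP1, and took the 12 genes farthest above and the 12 farthest below complete medium (a mean of at least 50 counts, no overlap), 6 genes per order of groups, and, from every list, at most 4 members with the smallest adjusted p. Other list members were named after their values were seen, and some named genes are not reported here. Alternatives were RLE size factors, library totals, no count filter, DESeq2 1.42.0, fits to 6 or 4 libraries, a block by library number, and leaving out each library.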

Additional observations from a re-analysis of the deposited data

How the results depend on the processing

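DESeq2 gave lower counts throughout: 1059 genes higher and 1001 lower than complete medium, 221 above both groups, 23 between them on the way up, 29 between on the way down and 47 below both. Fitting the 6 libraries of 3 groups gave 563 genes above both groups, 80 between on the way up, 151 between on the way down and 245 below both. The labels do not say that a library number marks a shared day or culture, and deviations of same-numbered libraries correlated at r = 0.0899 between estradiol and complete medium and at 0.0467 to 0.362 over all pairs of groups. With the library number as a replicate block, 2532 genes were higher and 2494 lower. In that fit 615 were above both groups, 94 between on the way up, 188 between on the way down and 324 below both. It also called GREB1 (edgeR, adjusted p = 0.00594) and XBP1 (adjusted p = 0.0128) higher. Leaving out single libraries gave 1174 to 1384 genes higher and 1055 to 1232 lower, 270 to 313 above both groups, 25 to 33 between on the way up, 35 to 61 between on the way down and 68 to 103 below both. RLE size factors (1915 and 1842) and library totals without scaling (1776 and 2065) changed the counts by less, and without the count filter they were 2191 and 1524. Over the alternatives 1580 values of named genes stayed on the same side of the threshold, 86 lost the call and 20 gained it. With a call in the main or the alternative fit 0 reversed direction, and reversals without a call were not counted. With 2 libraries a group and these totals, genes under about 10 CPM have wide errors, and a call that was missed does not show equal levels.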
